A study of Mus musculus with 27 samples.

Results

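Simple epithelial keratins are the intermediate filament proteins of glands and single-layered epithelia, and the 6 described here (Krt7, Krt8, Krt18, Krt19, Krt20 and Krt23) were followed through every liver culture of a mouse bulk RNA-seq series. They were chosen by gene name, out of 21848 genes in the count table. Krt8 and Krt18 were higher in all 12 hepatocyte organoid libraries than in freshly isolated hepatocytes, with fitted changes of 1.85- to 3.11-fold per condition, while Krt7, Krt19 and Krt20 differed by 257- to 2558-fold between single libraries of the assembloids.

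Keratin filaments are obligate heteropolymers: a basic type II chain (here Krt7 and Krt8) has to pair with an acidic type I chain (Krt18, Krt19, Krt20 and Krt23), and an unpaired chain is degraded. Adult hepatocytes are unusual among epithelial cells in making almost only the Krt8 and Krt18 pair, whereas bile duct cells (cholangiocytes) add Krt7 and Krt19, which are used in pathology as duct markers. Krt20 is best known from intestinal and gastric epithelium and urothelium, and Krt23 is a lesser studied type I keratin. Both Krt8 and Krt18 are stress proteins of the liver, and their amounts are known to increase after hepatocyte injury.

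The series compared freshly isolated hepatocytes, hepatocyte organoids (HepOrgs) and periportal assembloids, which were built from HepOrgs, cholangiocytes and portal mesenchyme, all from livers of adult C57BL/6 mice. Per the methods, mice of both sexes were used. The 27 libraries fell into 9 conditions of 3. The genotype label was WT for 26 libraries. The remaining library, replicate 3 of the freshly isolated hepatocytes, had a WT title and the genotype label MDR2-het.

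HepOrgs were sequenced at passage 2 after 7 or 14 days (1 or 2 weeks) in either of 2 media. HM-Wnt, the expansion medium, held gastrin, EGF, RSPO1 conditioned medium, FGF10, FGF7, nicotinamide, HGF, a GSK3 inhibitor written CHIR9902 in the labels, the TGF-beta receptor inhibitor A83-01, the ROCK inhibitor Y-27632 and WNT3a conditioned medium in a basal medium. MM, the minimal medium, held only the WNT conditioned medium and the ROCK inhibitor in the same basal medium, so that all cultures shared those components, and MM HepOrgs had been grown in HM-Wnt before the switch. Assembloids combined 10 HepOrgs with 1000 dissociated cholangiocytes and with 250 (homeostatic) or 2500 (fibrotic-like) portal mesenchymal cells, and were kept in MM for 7 or 18 days (1 or 2.5 weeks). Reporter mice were a source of the added cells: tdTomato marked cholangiocytes, and eGFP, driven from the Pdgfra locus, marked mesenchyme. Nothing in the labels says which replicates shared a mouse, so the p-values measure the spread between these samples. According to the methods, stray cholangiocyte organoids or mesenchyme were seen in some early HepOrg cultures and removed by hand.

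The libraries held 30289364 to 65348596 counts (median 43727965). Of the assembloids, replicate 2 of the homeostatic condition at 1 week stood apart, with a count for 8463 genes against 14013 to 16012 in 25 others, and 4.01% of its counts fell on the 6 keratins. In that library Alb, the albumin gene of hepatocytes, had 381 TPM (length-scaled transcript abundance, as deposited), and in replicate 3 of the fibrotic-like condition at 1 week it had 654 TPM. The 10 hepatocyte markers summed to 8633 and 13890 TPM in these libraries and to 30285 TPM or more in every other one, and each of the 10 had a count in all 27. Hnf4a, a transcription factor gene of hepatocytes, was not low there. It had 26.6 and 24.5 TPM in these libraries, the highest value of each condition. Several fitted differences that rest on these libraries are given with and without them. The spans between assembloid libraries, the shares of the keratin pool, the type II to type I balance and the correlations include them throughout. So do the differences over time in assembloids.

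All 6 genes lie in the keratin clusters of the mouse genome (GRCm39 coordinates, Ensembl annotation). The type II genes are on chromosome 15, Krt7 at chr15:101308924-101328194 on the plus strand and Krt8 at chr15:101905133-101912917 on the minus strand. Krt18, the only type I gene in that cluster, is at chr15:101936615-101940462 on the plus strand, 23697 bases from its partner Krt8. The other type I genes are on the minus strand of chromosome 11: Krt20 at chr11:99319227-99328985, Krt23 at chr11:99366873-99383963 and Krt19 at chr11:100031636-100039491. Krt7, Krt8 and Krt19 each overlap a predicted gene on the opposite strand (Gm671, Gm36026 and Gm73150). As the strand setting of the counting was not given in the sources used here, reads of the partners cannot be told apart.

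Krt8 also has a processed pseudogene, Krt8-ps, at chr7:23056550-23058004, inside an intron of Nlrp4e (chr7:23000617-23061702, plus strand). Its sequence is shown because Nlrp4e, the gene around it, comes up among the correlations described at the end. Of the 1470 coding bases of Krt8, 1454 aligned to the copy with 17 differences and 17 gap bases, an identity of 98.83%. The lines below give coding bases 817 to 876 of Krt8 and the matching stretch of the copy, chr7:23057366-23057425, in which the capitals mark the 4 differing bases.
Krt8: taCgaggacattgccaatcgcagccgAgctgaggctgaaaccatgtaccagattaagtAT
Krt8-ps: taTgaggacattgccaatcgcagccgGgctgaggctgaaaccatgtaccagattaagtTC

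The 250 bases before the start sites of the Ensembl canonical transcripts (GRCm39) of Krt20 and Krt19 are shown as well. These type I genes had at most 1 and 19 counts per library in isolated hepatocytes and up to 20256 and 87893 in assembloids. On either strand of the 6 windows, 5 motifs were searched. They were the AP-1 consensus, written TGANTCA, the GC box with the letters GGGCGG, the CCAAT box, the TATA box as TATAAA, and the TEAD element, taken to be GGAATG. In Krt20 (chr11:99328986-99329235, minus strand) capitals mark the TEAD element, which starts 133 and 128 bases before the start site as an overlapping double copy and 68 bases before it on the other strand, and the TATA box 23 bases before it. In Krt19 (chr11:100036947-100037196, minus strand, inside the annotated span of the gene) they mark the GC box.
Krt20: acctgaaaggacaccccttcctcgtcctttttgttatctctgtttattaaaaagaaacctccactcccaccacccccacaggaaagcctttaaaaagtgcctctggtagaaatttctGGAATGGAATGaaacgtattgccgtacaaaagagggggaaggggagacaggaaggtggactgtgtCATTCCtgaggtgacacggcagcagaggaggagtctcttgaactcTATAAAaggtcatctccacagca
Krt19: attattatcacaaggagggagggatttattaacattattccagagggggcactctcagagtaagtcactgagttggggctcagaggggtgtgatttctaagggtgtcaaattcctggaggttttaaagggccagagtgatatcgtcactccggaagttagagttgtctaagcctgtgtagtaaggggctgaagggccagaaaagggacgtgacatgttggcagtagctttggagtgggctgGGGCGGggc
Among 21603 promoters of the same length, the TEAD element was found in 12.119%, the TATA box in 11.943%, the GC box in 36.43%, the CCAAT box in 36.537% and the AP-1 consensus in 6.18%. The Krt7 window held 4 GC boxes, and the windows of Krt8, Krt18 and Krt23 held none of the 5 motifs. The Krt7 window (chr15:101310033-101310282) also lies inside the annotated span of its gene and overlaps 3 annotated exons. The AP-1 consensus and the CCAAT box were in none of the 6 windows. These matches describe letters and not binding sites.

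**Figure D1:**
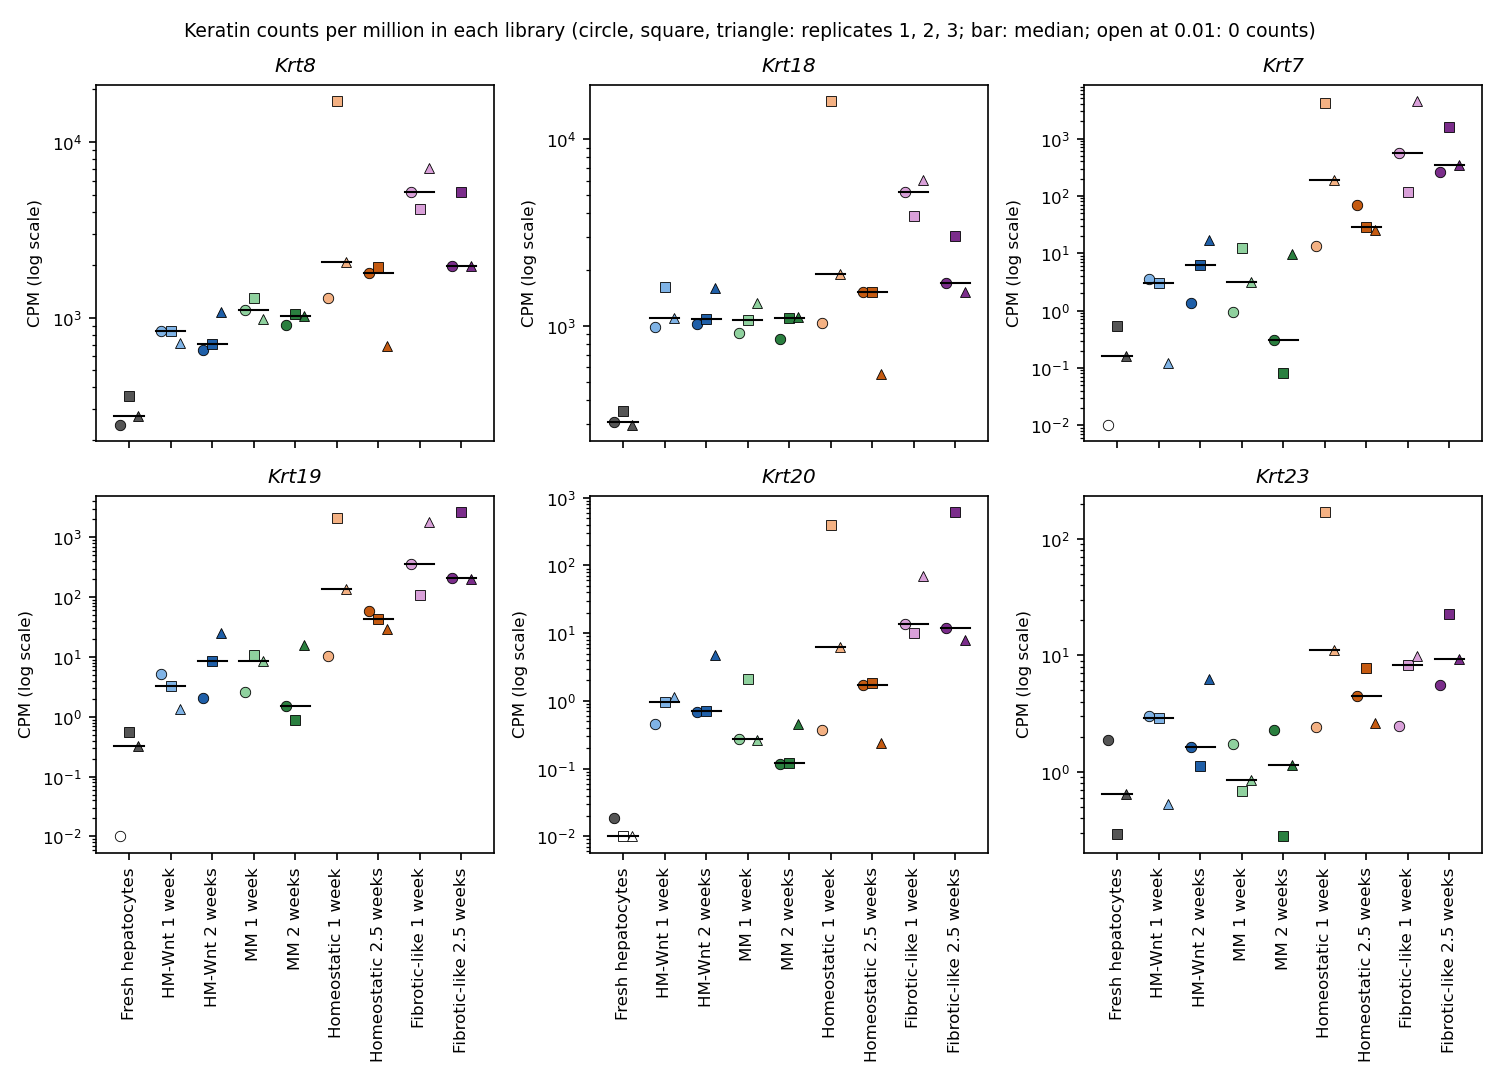
CPM for each of the 6 keratins (log scale) in the 9 conditions, with circles, squares and triangles for replicates 1, 2 and 3, a bar for the median, and open symbols at 0.01 for libraries with 0 counts. Krt8 and Krt18 sit between 243 and 357 CPM in freshly isolated hepatocytes and at 654 CPM or more in all HepOrgs, while Krt7, Krt19 and Krt20 spread over orders of magnitude among the assembloid libraries.

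In isolated hepatocytes the pool was almost only Krt8 and Krt18. Levels are given as CPM, the counts of a gene per 1000000 counts of its library. Per kilobase of coding length, which is the scale on which different keratins are compared here, Krt18 had 232 to 275 CPM and Krt8 166 to 243 CPM, and together they made up 99.6 to 99.8% of the 6 keratins. Krt7 had 0 to 18 counts per library, Krt19 0 to 19, Krt20 0 or 1 and Krt23 10 to 100, against 11893 to 16190 for Krt18. The same pair made up 97.9 to 99.9% of the pool in the 12 HepOrg libraries and 60.5 to 98.8% in the 12 assembloid libraries. As a share of all counts, the 6 genes took 0.0550 to 0.0707% in isolated hepatocytes, 0.168 to 0.272% in HepOrgs and 0.130 to 4.01% in assembloids.

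By median CPM, each of the 6 genes was lowest in isolated hepatocytes and had its 4 highest conditions among the assembloids. Neighbours in the order of the 9 conditions mostly did not separate. The ranges of the replicates overlapped in 5 of 8 neighbouring pairs for Krt8, in 6 for Krt19, in 7 for Krt7, Krt18 and Krt20, and in all 8 for Krt23. The steps at which they did not overlap included the one above isolated hepatocytes for Krt8, Krt18, Krt19 and Krt20, and the one between homeostatic assembloids at 2.5 weeks and the highest HepOrg condition for Krt7 and Krt19.

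The first comparison asked how far HepOrgs differed from the cells they were grown from, tested across 13396 genes with edgeR's quasi-likelihood test on counts and Benjamini-Hochberg adjustment (threshold 0.05). Krt8, the type II chain of hepatocytes, had 243, 357 and 276 CPM in replicates 1, 2 and 3 of isolated hepatocytes. In HM-Wnt it had 836, 839 and 713 CPM at 1 week and 654, 709 and 1078 CPM at 2 weeks. In MM it had 1109, 1298 and 987 CPM at 1 week and 903, 1045 and 1021 CPM at 2 weeks. All 12 HepOrg libraries lay above all 3 hepatocyte libraries. Krt8 rose in each HepOrg condition. The log2 change (± SE) in HM-Wnt was 1.10 ± 0.24 at 1 week (2.14-fold; adjusted p = 0.00218 by edgeR) and 0.89 ± 0.24 at 2 weeks (0.00760), and in MM it was 1.53 ± 0.24 (0.000289) and 1.38 ± 0.24 (0.000649).

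Krt18, its type I partner, had 305, 349 and 294 CPM in isolated hepatocytes. It had 981, 1617 and 1104 CPM in HM-Wnt at 1 week and 1022, 1092 and 1587 CPM at 2 weeks. In MM the values were 919, 1075 and 1330.2 CPM at 1 week and 855, 1102 and 1121 CPM at 2 weeks, so that again every HepOrg library was above every hepatocyte library. The rise was 1.64 ± 0.25 (3.11-fold, adjusted p = 0.000141 by edgeR) and 1.38 ± 0.25 (0.000454) in HM-Wnt and 1.36 ± 0.25 (0.000743) and 1.32 ± 0.25 (0.000963) in MM. No omission of a single library ended a call for Krt8 or Krt18. With all 27 libraries in 1 fit, which adds the spread of the assembloids, Krt8 passed in MM at 1 week only (adjusted p = 0.0499 by edgeR, against 0.124, 0.218 and 0.0859 elsewhere) and Krt18 in HM-Wnt at 1 week only (0.0270, against 0.0561, 0.0858 and 0.108). On the log2(TPM + 1) scale the same Krt8 differences came to 1.64 to 2.15, where the median of all genes itself moved up by 0.40 to 0.68, against -0.01 to 0.03 in the count test.

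Krt19, the duct keratin that has the shortest chain of the family, had 0, 0.557 and 0.320 CPM in isolated hepatocytes (0, 19 and 14 counts). In HM-Wnt it had 5.11, 3.24 and 1.35 CPM at 1 week and 2.04, 8.62 and 25.1 CPM at 2 weeks. In MM it had 2.58, 10.7 and 8.68 CPM at 1 week and 1.51, 0.877 and 16.0 CPM at 2 weeks. Each HepOrg library was above each hepatocyte library, but replicates of a condition differed widely, most of all in MM at 2 weeks. Krt19 rose by 4.61 ± 1.28 in HM-Wnt at 2 weeks (adjusted p = 0.00868 by edgeR), by 4.09 ± 1.26 in MM at 1 week (0.0186) and by 3.78 ± 1.24 in MM at 2 weeks (0.0272), while the difference in HM-Wnt at 1 week was 3.03 ± 1.22 (0.0531). The MM calls rested on single libraries. At 1 week the adjusted p was 0.0531 without hepatocyte replicate 1 and 0.0556 without replicate 3, and over all alternatives it ran from 0.00358 to 0.0810. At 2 weeks it was 0.0752 and 0.0727 without the same libraries and 0.239 without MM replicate 3, where the difference was 1.70 (range over all alternatives 0.00731 to 0.239). Conversely, Krt19 in HM-Wnt at 1 week passed without hepatocyte replicate 2 (0.0490), without HM-Wnt replicate 3 (0.0484) and with the replicate number as a block (3.70, 0.0203), with a range of 0.0185 to 0.156.

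Krt7, the type II duct keratin, had 0, 0.528 and 0.160 CPM in isolated hepatocytes (0, 18 and 7 counts). It had 3.58, 3.00 and 0.123 CPM in HM-Wnt at 1 week and 1.34, 6.14 and 16.9 CPM at 2 weeks. In MM it had 0.952, 12.2 and 3.13 CPM at 1 week and 0.301, 0.0797 and 9.72 CPM at 2 weeks. Replicate 3 of HM-Wnt at 1 week and replicates 1 and 2 of MM at 2 weeks lay within the hepatocyte range, and the other 9 libraries lay above it. Krt7 passed the test in HM-Wnt at 2 weeks, with 4.37 ± 1.74 (adjusted p = 0.0492 by edgeR). The difference was 4.02 ± 1.71 (0.0737) in MM at 1 week and 2.84 ± 1.65 (0.167) in HM-Wnt at 1 week, and in MM at 2 weeks the adjusted p was 0.144. The call at 2 weeks of HM-Wnt was lost without hepatocyte replicate 1 (3.79, 0.129) or 3 (4.17, 0.127), without HM-Wnt replicate 2 (4.45, 0.0685) or 3 (3.43, 0.134), and with the replicate number as a block (4.22, 0.0517), with a range of 0.0164 to 0.134.

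Krt20 had a single count in the 3 hepatocyte libraries together (1, 0 and 0 counts). HM-Wnt HepOrgs had 17, 29 and 55 counts at 1 week and 28, 29 and 149 counts at 2 weeks. MM HepOrgs had 16, 86 and 12 counts at 1 week and 5, 6 and 16 counts at 2 weeks, and none of the 12 libraries came as low as the hepatocytes. Pooled over replicates, the CPM of HM-Wnt HepOrgs was 114 times that of hepatocytes at 1 week (95% exact interval 19.9 to 4529) and 239 times at 2 weeks (42.4 to 9482). For MM the ratio was 102 (18.0 to 4071) at 1 week and 27.5 (4.54 to 1127) at 2 weeks. These intervals cover counting error only, and a fitted fold change against 1 count has no fixed size. Krt20 passed the test in each condition (adjusted p by edgeR 0.00340 and 0.00117 in HM-Wnt, 0.00420 and 0.0424 in MM). The last call was lost without hepatocyte replicate 1, 2 or 3 (0.0700, 0.0961 and 0.119) and without MM replicate 2 (0.0512) or 3 (0.142), and its range over all alternatives was 0.0143 to 0.354.

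Krt23 was the member that did not pass in any HepOrg condition. It had 1.88, 0.293 and 0.640 CPM in isolated hepatocytes, 3.02, 2.91 and 0.533 CPM in HM-Wnt at 1 week and 1.64, 1.12 and 6.29 CPM at 2 weeks. In MM it had 1.73, 0.680 and 0.846 CPM at 1 week and 2.27, 0.279 and 1.14 CPM at 2 weeks. The ranges overlapped in all 4 comparisons, with adjusted p-values by edgeR from 0.358 to 0.995.

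In sum over the 6 genes, 3 passed in HM-Wnt at 1 week, 5 in HM-Wnt at 2 weeks and 4 in MM at each time, all of them higher in HepOrgs. Among all genes tested, 49.7%, 51.8%, 42.8% and 39.7% passed in the same comparisons in either direction, and 24.9%, 26.1%, 21.5% and 19.7% were higher. Krt7, Krt19 and Krt20 had too few counts in hepatocytes to pass the filter on low counts there and entered the test only through HepOrgs, where they were higher, so the counts of members lend no support by themselves. The same holds for list genes near 0 in hepatocytes. DESeq2 called 4, 5, 5 and 4 of the 6. Without hepatocyte replicate 3, the library with the MDR2-het label, the counts were 3, 4, 3 and 2, and without replicate 1 they were the same.

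**Figure D2:**
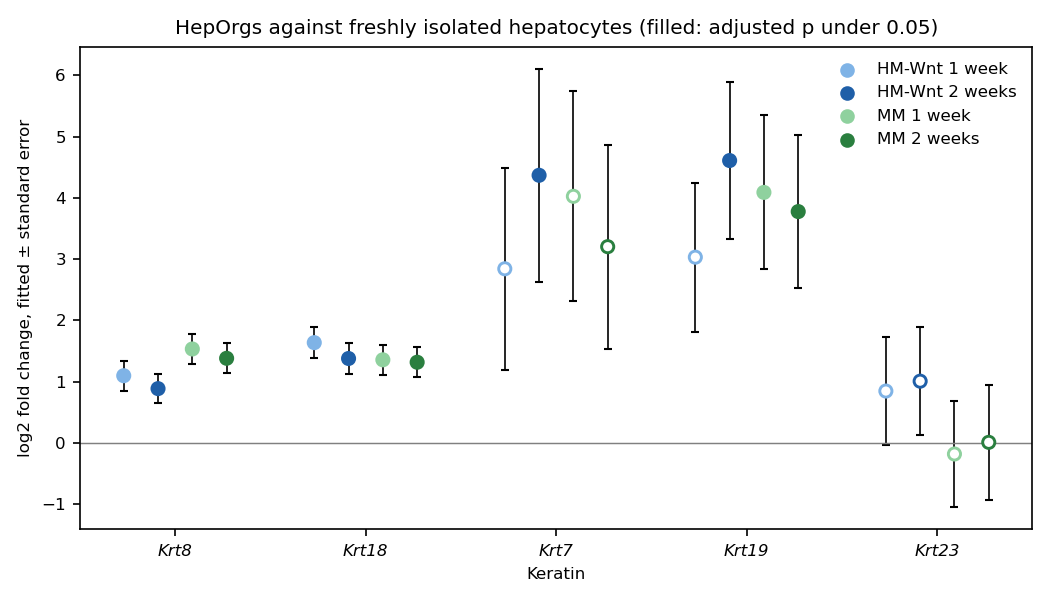
Fitted log2 fold change (± standard error, n = 3 libraries per condition) of 5 keratins in the 4 HepOrg conditions against freshly isolated hepatocytes, with filled points where the edgeR adjusted p was under 0.05. Krt8 and Krt18 have small errors (0.24 to 0.25) and pass in all 4, Krt7 and Krt19 have larger changes with errors above 1.2, and Krt23 passes in none; Krt20, with 1 count in the hepatocytes, is left out.

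Other markers moved with these keratins. Of 11 cholangiocyte markers tested (keratins not included), 9, 9, 10 and 10 were higher in the 4 HepOrg conditions, where 24.9%, 26.1%, 21.5% and 19.7% of all genes were, and 1 was lower in each HM-Wnt condition. The summed TPM of the list without Spp1, the osteopontin gene whose RNA outweighed all the others, was 10.2 to 21.1 in isolated hepatocytes, with Cftr at 0 in all 3, and 147 to 729 in HepOrgs, with 10 or 11 of 11 genes having a count. With Spp1 it was 12.9 to 105 and 5327 to 20667 TPM. The 9 mesenchyme markers summed to 4.19 to 20.9 TPM in hepatocytes and 45.9 to 207 TPM in HepOrgs, but only 1, 2, 2 and 2 of the 9 passed as higher, Vim among them each time, and the median log2 changes were 0.39, -0.50, 0.92 and 1.76. The 7 mesothelial markers, listed because these cells also make Krt7, Krt8, Krt18 and Krt19, summed to 0.109 to 2.65 and 0.158 to 11.4 TPM. Endothelial markers ran the other way, with 8 of 8 lower in HepOrgs. Of 7 immune markers 6, 5, 4 and 2 were lower, and 1 was higher in each condition. The summed TPM of the immune list overlapped, with 25.0 to 212 in hepatocytes. It was 50.2 to 67.6 and 70.1 to 208 in HM-Wnt and 56.7 to 194 and 20.7 to 1164 in MM. Of 10 hepatocyte markers 4, 7, 6 and 7 were lower, with median log2 changes of -0.91, -1.73, -1.27 and -1.36, and 1 was higher in MM at 2 weeks. Among all genes tested, 49.7%, 51.8%, 42.8% and 39.7% passed in either direction. The share that was lower is not given, so the counts of lower markers lend no support by themselves. The part of these marker lists in the keratin results was not tested. In bulk RNA, fewer cells of a type and less RNA per cell cannot be told apart.

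The second comparison asked whether the medium or the time in it changed the keratins of HepOrgs, tested over 12989 genes in the 12 HepOrg libraries. None of the 6 keratins passed between MM and HM-Wnt at 1 week, where 2.98% of all genes did. An unadjusted p under 0.05 by edgeR was reached by 0 keratins and by 2921 of the 12989 genes, and DESeq2 called 0 keratins. Krt8 came closest: its 3 MM libraries, from 987 CPM upwards, were all above the 3 HM-Wnt libraries, which ended at 839 CPM, and the difference was 0.42 ± 0.22 (adjusted p = 0.285 by edgeR). At 2 weeks again none of the 6 passed (11.5% of all genes did). An unadjusted p under 0.05 by edgeR was reached by 2 keratins, Krt8 and Krt20, and by 3679 of the 12989 genes. DESeq2 called 1 keratin, Krt20. Krt8 had 903 to 1045 CPM in MM against 654 to 1078 in HM-Wnt, with overlapping ranges and a difference of 0.51 ± 0.23 (adjusted p = 0.164 by edgeR; range over all alternatives 0.0909 to 1). For Krt20 all MM libraries (0.116, 0.120 and 0.456 CPM) lay below all HM-Wnt libraries (0.696, 0.704 and 4.73 CPM), with a difference of -2.71 ± 0.96 (adjusted p = 0.0890 by edgeR, 0.0174 by DESeq2; range 0.0174 to 0.714).

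With the replicate number as a block, again 0 of 6 passed at either time by edgeR, while the genes called between the media went from 387 to 1232 at 1 week and from 1488 to 2544 at 2 weeks. Krt18 had overlapping ranges between the media at both times. Between 1 and 2 weeks 0 of the 6 passed in HM-Wnt, where 0% of all genes did, and 0 of 6 in MM, where 0.0154% did. There, too, 0 keratins had an unadjusted p under 0.05 by edgeR, against 1134 genes in HM-Wnt and 1337 in MM, and DESeq2 called 0 keratins. The medium difference did not change detectably with time for any of the 6 (0 passed, and 0 had an unadjusted p under 0.05 by edgeR, against 951 of all genes).

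Levels of the partners were therefore compared within each library, where the total cancels out. Per coding length, Krt8 RNA was 0.690, 0.882 and 0.809 times Krt18 RNA in isolated hepatocytes. In HM-Wnt the ratio was 0.736, 0.448 and 0.557 at 1 week and 0.552, 0.560 and 0.586 at 2 weeks. In MM it was 1.04, 1.04 and 0.640 at 1 week and 0.911, 0.819 and 0.786 at 2 weeks. Apart from HM-Wnt replicate 1 at 1 week, which exceeded MM replicate 3 of that time, all HM-Wnt libraries were below all MM libraries. The ratio was 1.52-fold higher in MM (log2 difference 0.60, n = 6 against 6; exact permutation test within time points, two-sided, p = 0.01, adjusted over 9 ratio tests 0.0791), and the smallest p this design allows is 0.005. Left without MM replicate 2 of 2 weeks, the difference was 0.61 with an adjusted p of 0.045 by the same exact test, and it ran from 0.045 to 0.141 over all alternatives. The ratio was higher in MM in all 6 same-numbered pairs, and with labels exchanged within these pairs only the exact permutation test gave p = 0.0312, the smallest it can give, and 0.141 after adjustment. Both tests treat the libraries of 1 and 2 weeks as independent. Same-numbered HepOrg libraries deviated together across media and times, however (all 18 pairs, r 0.127 to 0.503). The p-values of both tests may therefore be too small, and a test with 1 unit per replicate number was not run. HepOrgs as a whole and isolated hepatocytes overlapped in this ratio (log2 difference -0.18, exact permutation p = 0.479, adjusted 0.616, with 0.0022 the smallest p possible).

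**Figure D3:**
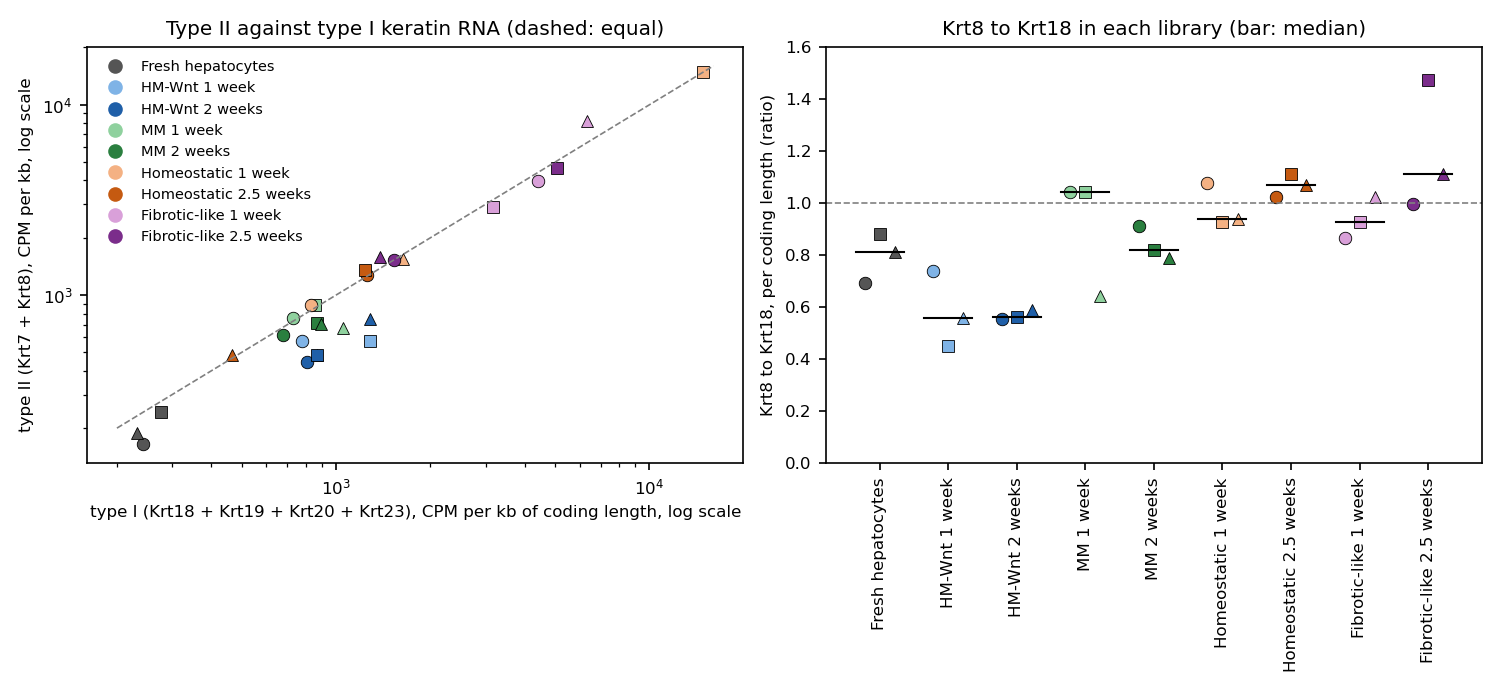
Left, summed type II (Krt7 and Krt8) against summed type I keratin RNA (Krt18, Krt19, Krt20 and Krt23) in CPM per kilobase of coding length (log axes) in the 27 libraries, with a dashed line at equality; right, the ratio of Krt8 to Krt18 per coding length in each library, with a bar for the median of 3. Assembloids lie between 0.894 and 1.30 type II per type I, and the HM-Wnt HepOrgs lie lowest in the right panel, at 0.448 to 0.736.

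In the assembloids, where cholangiocytes and mesenchyme had been added to HepOrgs, all 6 keratins spread widely between replicates. Krt8 had 1297, 17215 and 2072 CPM in homeostatic assembloids at 1 week and 5219, 4159 and 7160.5 CPM in fibrotic-like assembloids. At 2.5 weeks it had 1801, 1950.0 and 687 CPM in homeostatic and 1960.1, 5163 and 1958 CPM in fibrotic-like assembloids. At 1 week the homeostatic libraries spanned the fibrotic-like ones because of replicate 2, and at 2.5 weeks the fibrotic-like libraries were all higher, the nearest pair being 1958 and 1950.0 CPM. Krt18 followed, with 1041, 16059 and 1907 CPM against 5212, 3879 and 6046 CPM at 1 week. At 2.5 weeks Krt18 had 1523, 1514 and 556 CPM against 1701, 3023 and 1522 CPM, with overlapping ranges.

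The duct keratins spread further. Krt7 had 13.2, 4196 and 187 CPM in homeostatic and 551, 118 and 4569 CPM in fibrotic-like assembloids at 1 week. At 2.5 weeks it had 70.7, 29.1 and 25.0 CPM in homeostatic and 256.1, 1571 and 341 CPM in fibrotic-like assembloids. The 2.5-week groups did not overlap and those at 1 week did. Krt19 had 10.4, 2107 and 138 CPM against 366, 109.9 and 1819 CPM at 1 week, and 59.9, 43.0 and 29.6 CPM against 209, 2672 and 202 CPM at 2.5 weeks, with the same pattern. From the lowest to the highest of the 12 libraries the span was 347-fold for Krt7 and 257-fold for Krt19, against 25.1-fold for Krt8 and 28.9-fold for Krt18.

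Krt20 had the widest span, 2558-fold. It had 0.372, 391 and 6.21 CPM in homeostatic and 13.5, 9.92 and 70.9 CPM in fibrotic-like assembloids at 1 week. At 2.5 weeks it had 1.72, 1.83 and 0.241 CPM in homeostatic and 11.9, 616 and 7.81 CPM in fibrotic-like assembloids, again with no overlap at 2.5 weeks only. Its highest library was not the one with the most Krt8 but replicate 2 of the fibrotic-like condition at 2.5 weeks, with 20256 counts. Krt23 had 2.42, 171 and 11.2 CPM against 2.49, 8.23 and 9.89 CPM at 1 week and 4.51, 7.84 and 2.65 CPM against 5.54, 22.9 and 9.26 CPM at 2.5 weeks. Its ranges overlapped at both times.

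None of the 6 keratins passed between fibrotic-like and homeostatic assembloids at 1 week, at 2.5 weeks or over both times, and 0% of the 14253 genes tested passed either. At 1 week 1 keratin, Krt23, had an unadjusted p under 0.05 by edgeR, as did 2012 of the 14253 genes. Its difference was -3.34 ± 1.16 (adjusted p = 0.295 by edgeR and 0.0286 by DESeq2, which called it). The adjusted p ranged over all alternatives from 0.0286 to 0.997. Without homeostatic replicate 2 that difference shrank to -0.71. At 2.5 weeks 2 keratins, Krt19 and Krt20, had an unadjusted p under 0.05 by edgeR, as did 944 of the 14253 genes, and DESeq2 called 0 keratins. The differences were 3.74 ± 1.54 for Krt19 (adjusted p = 0.742), 6.50 ± 2.34 for Krt20 (0.737) and 3.43 ± 1.62 for Krt7 (0.758), all by edgeR. Without fibrotic-like replicate 2 of 2.5 weeks those of Krt19, Krt20 and Krt7 were 1.97, 2.72 and 2.60.

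Over both times the differences were 1.66 ± 1.07 for Krt7 (adjusted p = 0.463 by edgeR), 1.72 ± 1.01 for Krt19 (0.410) and 2.08 ± 1.35 for Krt20 (0.472). Here 0 keratins had an unadjusted p under 0.05 by edgeR, against 2678 of all genes, and DESeq2 called 0 keratins. Leaving out the homeostatic library that stood apart turned this round: Krt7 (3.36, adjusted p = 0.0296), Krt19 (3.15, 0.0317) and Krt20 (4.47, 0.0300) then passed by edgeR, as did 4375 genes in all. Leaving out replicate 2 of the fibrotic-like condition at 2.5 weeks instead moved the same differences down, to 1.25 for Krt7 (adjusted p = 0.777), 0.83 for Krt19 (0.859) and 0.18 for Krt20 (0.990), by edgeR. The adjusted p ranges over all alternatives were 0.0142 to 0.897, 0.0171 to 0.859 and 0.0300 to 0.990. With both low-albumin libraries left out, Krt7 (2.34, 0.0431) and Krt20 (3.91, 0.0445) passed by edgeR and Krt19 did not (2.47, 0.0509). Under this omission 4139 genes passed in all.

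Time in culture gave no call either. Between 1 and 2.5 weeks 0 of 6 passed in homeostatic assembloids and 0 of 6 in fibrotic-like assembloids, with 0% of all genes passing in each. In the homeostatic ones all 6 had an unadjusted p under 0.05 by edgeR, as did 936 genes in all. Their ranges overlapped, the adjusted p by edgeR was 0.758, and DESeq2 called 0 keratins. In the fibrotic-like ones 0 keratins had an unadjusted p under 0.05 by edgeR, against 121 genes in all, and DESeq2 called 0 keratins. Krt18 was nevertheless lower in all 3 libraries at 2.5 weeks than in any at 1 week. The change of the fibrotic-like difference with time was past the threshold for 0 of 6 and for 0% of all genes. Under an unadjusted p of 0.05 by edgeR were 2 keratins (Krt20 and Krt23) and 278 genes in all. The median of all genes lay off 0 by 0.20 in the 1-week comparison, by 0.27 in the homeostatic time course and by 0.14 over both times, and the differences above are not corrected for it.

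Assembloids were last set against the HepOrgs in the same medium at 1 week, over 13733 genes. In fibrotic-like assembloids all 3 libraries were above all 3 MM HepOrg libraries for each of the 6 keratins, yet 0 of 6 passed, as did 0% of all genes. How many of all genes separated in the same way is not given, here or for the separations above. Separation of the groups therefore lends no support by itself. Krt7 differed by 7.29 ± 2.26 and Krt19 by 5.76 ± 1.74 (adjusted p = 0.374 for each by edgeR). These were the 2 keratins with an unadjusted p under 0.05 by edgeR, which 1512 of the 13733 genes had, and the 2 that DESeq2 called. Krt20 differed by 4.13 ± 2.01 (0.501), Krt23 by 1.79 ± 1.22 (0.673), Krt8 by 1.48 ± 0.76 (0.529) and Krt18 by 1.43 ± 0.78 (0.551), all by edgeR. With only the groups compared in the fit 5 of 6 passed, and with weights for library quality 5 did, with no share of all genes given for either. With both low-albumin libraries left out 4 keratins passed by edgeR, as did 3114 genes in all. The differences were then 5.25 for Krt7, 4.38 for Krt19, 3.02 for Krt20, 1.61 for Krt23, 1.39 for Krt8 and 1.41 for Krt18.

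In homeostatic assembloids 0 of 6 passed as well, with 0% of all genes. All 6 had an unadjusted p under 0.05 by edgeR, as did 976 genes in all, and DESeq2 called 3 (Krt7, Krt19 and Krt23). Only Krt7 and Krt23 were above the HepOrgs in all 3 libraries. The differences were 7.47 ± 2.28 for Krt7, 6.14 ± 1.77 for Krt19, 6.56 ± 2.26 for Krt20, 5.20 ± 1.42 for Krt23, 2.11 ± 0.78 for Krt8 and 2.05 ± 0.79 for Krt18 (adjusted p = 0.685 for each by edgeR), and the median of all genes lay at -0.20. Without replicate 2 they were 3.99, 3.18, 1.67, 2.48, 0.59 and 0.44 in the same order. Both comparisons share the MM HepOrg libraries.

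Markers of other cells also differed between replicates. The 11 cholangiocyte markers without Spp1 summed to 104, 4040 and 604 TPM in homeostatic assembloids at 1 week and to 1784, 849 and 5129 TPM in fibrotic-like ones. At 2.5 weeks they summed to 300, 239 and 133 TPM and to 643, 3560 and 826 TPM, with 10 or 11 of 11 genes having a count. The 9 mesenchyme markers summed to 56.6, 4562 and 306 TPM and 1483, 2929 and 2471 TPM at 1 week, and to 104, 138 and 78.9 TPM and 525, 2904 and 1769 TPM at 2.5 weeks. They did not peak with the keratins in every condition: among fibrotic-like assembloids at 1 week the mesenchyme sum was highest in replicate 2, which had the least Krt7, Krt8, Krt19 and Krt20 of the 3. Replicate 3, which had the most of these keratins, had the lowest Col1a1, the collagen gene of mesenchyme (61.0 TPM, against 434 and 884 TPM). Its mesenchyme sum (2471 TPM) was nevertheless above that of replicate 1 (1483 TPM). The count of eGFP, the mesenchyme label, was also highest in replicate 3 (40767, against 1647 and 3915 in replicates 1 and 2).

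The 7 markers of mesothelial cells, which line the liver surface, summed to 5.22, 5458 and 168 TPM in homeostatic and 139.8, 131 and 6152 TPM in fibrotic-like assembloids at 1 week. At 2.5 weeks they summed to 60.4, 36.1 and 18.8 TPM and to 287, 1748 and 331 TPM. In all 12 libraries nearly all of the sum was a single gene, Msln, which encodes mesothelin, with 5.11 to 6151 TPM. The other 6 markers were at 0 in homeostatic replicate 2 of 1 week, so the list as a whole did not mark these libraries. In that library Msln had 5458 TPM, tdTomato 238 counts and eGFP 472. The part of other cells in the keratin values was not tested.

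The make-up of the keratin pool differed between libraries as well. In replicate 2 of fibrotic-like assembloids at 2.5 weeks, Krt8 and Krt18 made up 60.5% of the keratins per coding length, the lowest share of the 27 libraries. Krt7 took up to 22.9% of the pool and Krt19 up to 22.7% in single assembloid libraries, Krt20 up to 4.89% and Krt23 up to 0.456%. Despite this, type II and type I RNA per coding length stayed near balance, with 0.894 to 1.30 type II per type I in the 12 assembloid libraries, against 0.448 to 1.04 in HepOrgs. The canonical transcript has 4094 bases for Krt7 (1371 coding) but 1437 for Krt18 (1269 coding). Scaling by transcript length would lower Krt7 against Krt18, so the shares and the balance hold for coding length only. Krt8 to Krt18 alone was 0.995, 1.47 and 1.11 in fibrotic-like assembloids at 2.5 weeks, and in the replicate with 1.47 the summed ratio was 0.916, since Krt19 there exceeded Krt7.

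**Figure D4:**
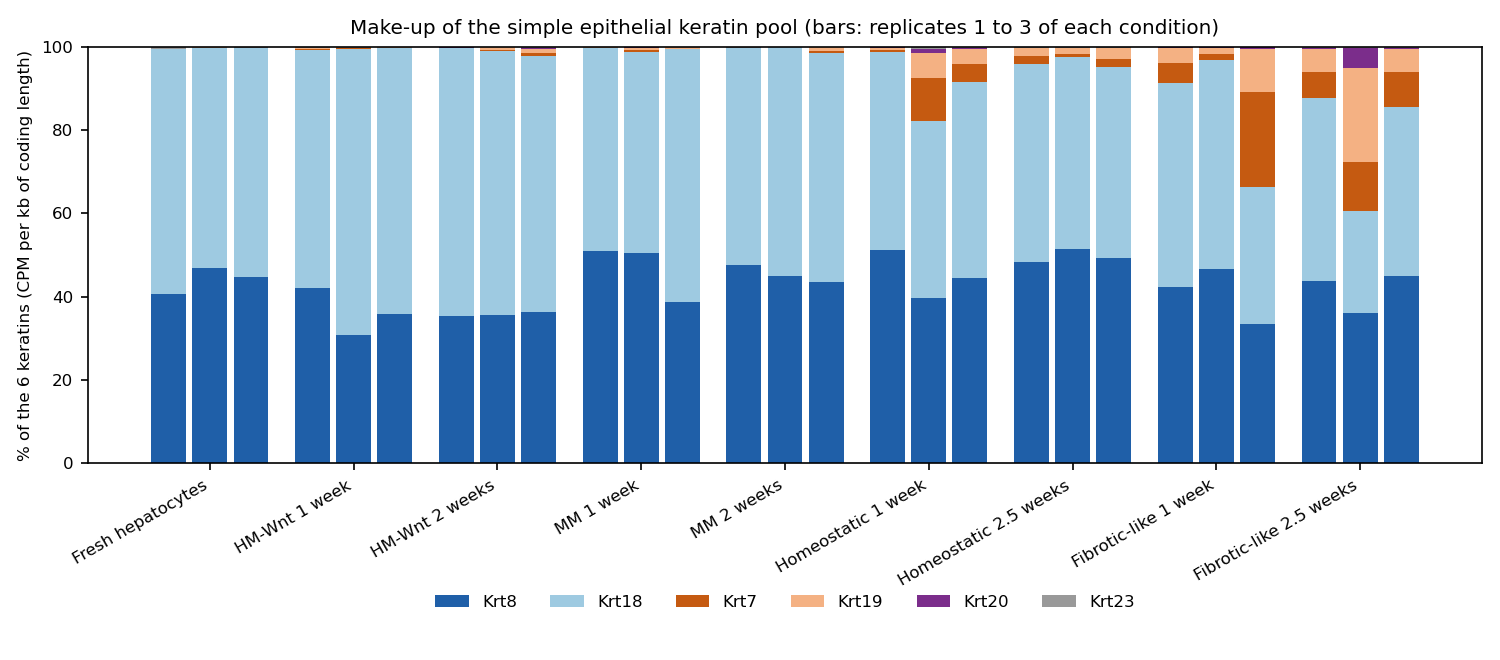
Stacked bars give the percentage of each of the 6 keratins in their summed CPM per kilobase of coding length, with 1 bar per library and replicates 1 to 3 from left to right in each condition. Krt8 and Krt18 fill 97.9% or more of each hepatocyte and HepOrg bar and 60.5 to 98.8% of the assembloid bars, where Krt7 and Krt19 take most of the rest.

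None of the other ratio tests passed after adjustment. The ratio of Krt19 to Krt18 was higher in HepOrgs than in hepatocytes by 3.34 on the log2 scale (exact permutation test, p = 0.0176, adjusted 0.0791). It came to 2.05 with 5 in place of 0.5 added to each count (adjusted 0.225, exact) and to 1.52 without hepatocyte replicate 1, which had 0 counts of Krt19. It did not differ detectably between the media (0.03, adjusted 0.965, exact). Between fibrotic-like and homeostatic assembloids it differed by 1.76 (exact permutation test, p = 0.1, adjusted 0.225), and the ratio of Krt7 to Krt8 by 1.91 (p = 0.0800, adjusted 0.225). For Krt8 to Krt18 the difference was 0.04 (exact permutation test, p = 0.785, adjusted 0.883). Krt7 to Krt8 also gave 2.64 in HepOrgs against hepatocytes (adjusted 0.233, exact), or 1.42 with 5 added and 1.08 without hepatocyte replicate 1, and -1.13 between the media (adjusted 0.616, exact). The ratio tests of HepOrgs against hepatocytes treated all HepOrg libraries as independent, although same-numbered ones deviated together. The p-values of those tests may therefore be too small.

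Keratin filaments are anchored at desmosomes and hemidesmosomes, and 18 genes of these junctions and of keratin linkers were read in the same fits. Against isolated hepatocytes 6, 8, 10 and 10 of them were higher and 2, 1, 1 and 1 lower in HM-Wnt at 1 and 2 weeks and MM at 1 and 2 weeks, with median log2 changes of 0.42, 0.65, 1.08 and 0.89 against -0.01 to 0.03 for all genes. The share of all genes that were higher was 24.9%, 26.1%, 21.5% and 19.7% in the same order, near the share of the list in HM-Wnt at 1 week. Itga6, a subunit of the hemidesmosomal integrin, went from 18 to 27 counts per library to 553 to 1684 (log2 change 4.61 ± 0.27, adjusted p = 9.74e-08 by edgeR in HM-Wnt at 1 week). Its partner Itgb4 rose by 2.51 ± 0.49 there, and both passed in all 4 conditions. Sfn, of the 14-3-3 family of keratin-binding proteins, had 0 to 4 counts in hepatocytes and 374 to 2102 in HepOrgs. Dsp, the desmosomal plakin that holds the filament, rose by 0.58 ± 0.18 to 0.81 ± 0.19, a smaller step, while Pkp4, a plakophilin, fell in all 4 conditions (-2.27 to -1.23).

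Between the media, 2 of the 18 were higher in MM at 1 week, where 2.98% of all genes differed in either direction. They were Fam83h, a regulator of keratin filament organisation (1.15 ± 0.25, adjusted p = 0.0349 by edgeR), and Eppk1, the linker epiplakin (1.15 ± 0.28, 0.0486). At 2 weeks Pkp4 (1.06 ± 0.21, 0.0103) and the desmosomal cadherin Dsc2 (1.66 ± 0.39, 0.0206) were higher in MM, and Pkp1, a plakophilin of desmosomes, was lower (-2.22 ± 0.62, 0.0417), all by edgeR. At that time 11.5% of all genes differed in either direction, so the number of members called lends no support by itself. None of the 18 passed between the assembloids, where 0% of all genes did.

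Of 9 other intermediate filament genes 7 were tested, and in each HepOrg condition 3 were higher than in hepatocytes and 1 was lower, where 39.7 to 51.8% of all genes differed. Vim, the filament of mesenchymal cells and also 1 of the 9 mesenchyme markers above, rose by 3.28, 3.42, 3.56 and 4.08, and Lmna, the A-type nuclear lamin, by 0.70, 1.01, 1.06 and 1.12. The third was Prph, which had 2 counts in the hepatocytes. Lmnb1, the B-type lamin, fell (-2.37, -2.37, -1.66 and -1.91). Of 47 other keratin genes, 4 had enough counts to test. Krt5, a keratin of basal cells, had 0 counts in the hepatocytes and 4 to 58 in HepOrgs, through which alone it could enter the test. Homeostatic replicate 2 of 1 week had no count for any of these 47 genes, whereas its 6 simple keratins summed to more than in any other library.

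Across the 27 libraries Krt7 and Krt19 rose and fell together, with Pearson's r = 0.979 of log2 CPM (0.949 in the 12 HepOrg libraries, 0.971 in the 12 assembloid libraries and 0.942 after subtracting each condition's mean). Krt8 and Krt18 had r = 0.934 over all, 0.980 in assembloids and 0.214 in HepOrgs, where both varied less than 2-fold. Krt7 and Krt8 had r = 0.120 in HepOrgs. These values describe libraries that share cell preparations, depth and conditions, and carry no test.

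Among the 7498 genes whose log2 CPM averaged 3 or more, the 3 most like Krt7 were Ano1, a chloride channel (r = 0.969), Anxa1 (0.926) and Ccn2 (0.924). Those most like Krt19 were Ano1 (0.968), Ccn2 (0.956) and Pamr1 (0.942), so that Ano1 led both lists. For Krt18 they were Pdcl3 (0.946), Mapre1 (0.941) and Ift43 (0.940), for Krt20 Clic1 (0.918), Traf7 (0.917) and Sh3bgrl3 (0.910), and for Krt23 Prkca (0.831), Galk2 (0.814) and Uxs1 (0.800).

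The gene most like Krt8 was Nlrp4e (r = 0.996, and 0.986 within conditions), ahead of Anapc4 (0.967) and Cxcl16 (0.951). Nlrp4e is the gene whose intron holds Krt8-ps, shown above. Of the 1440 stretches of 31 bases in the Krt8 coding sequence, 976 also occur in the Nlrp4e gene, and the length listed for most genes (80.8%, within 5%) equals the whole gene span, introns included. Nlrp4e had 110 to 7208 counts per library, which was 0.851 to 1.23% of the Krt8 count (median 1.04%) in each of the 27 libraries. The Nlrp4e counts therefore tracked Krt8 at a nearly fixed ratio over the whole range of Krt8. The part of Krt8-ps in this was not tested. Of the 1239 stretches of Krt18, 165 occur elsewhere in the genome, 5 of them in Btbd3, while Krt20 and Krt23 share none.

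**Figure D5:**
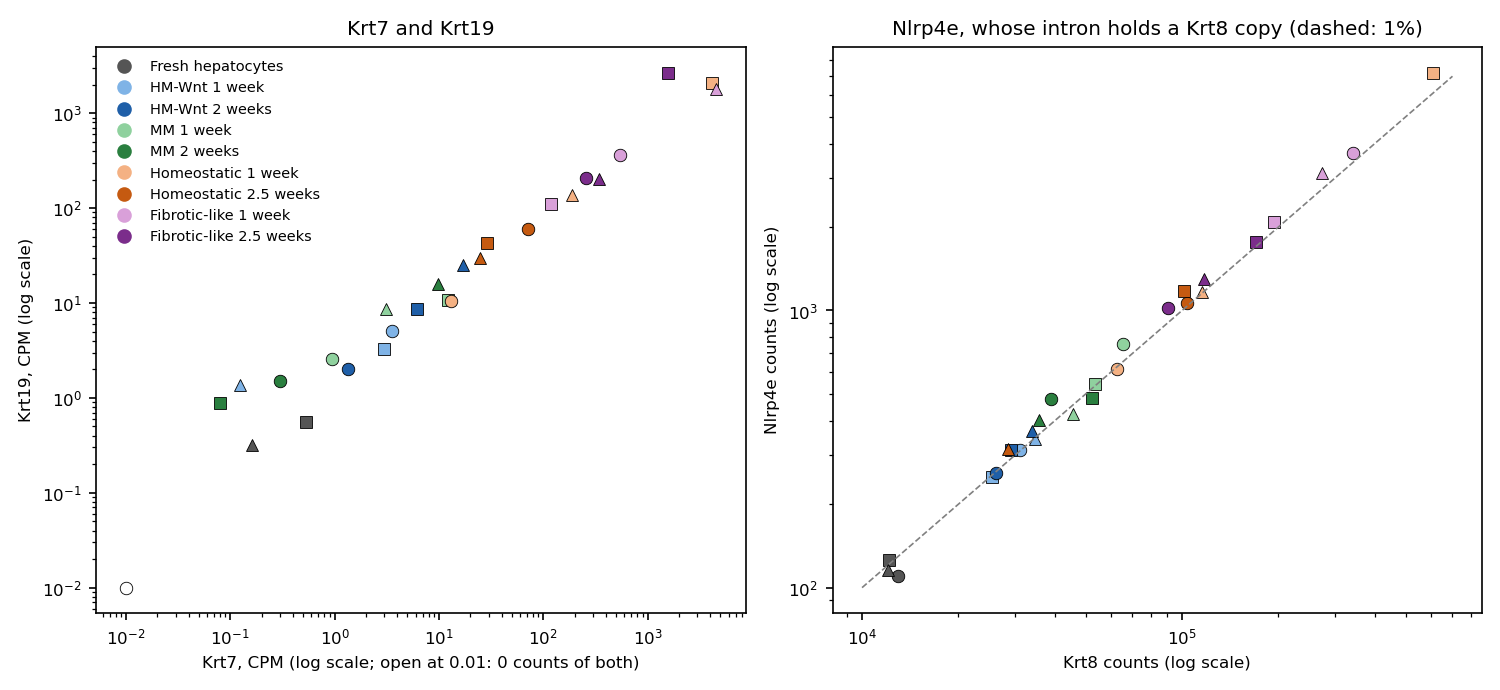
Left, CPM of Krt19 against Krt7 in the 27 libraries (log axes; open symbol at 0.01 for the library with 0 counts of both); right, counts of Nlrp4e against counts of Krt8 (log axes), with a dashed line at 1%. Krt7 and Krt19 line up from isolated hepatocytes to assembloids (r = 0.979), and Nlrp4e stays between 0.851 and 1.23% of Krt8.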

How the data were processed

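Bulk RNA-seq (PicoPure RNA, Nextera libraries) was deposited as 1 table of gene counts and TPM for 37 libraries, of which 27 had labelled conditions used here and 10 were not used. The authors aligned reads to GRCm39 with STAR and counted them per gene with featureCounts, so the deposited counts are whole reads per gene, not normalized. The strand setting and the handling of multiply mapped reads were not given in the sources used here. The deposited TPM divide by a length that equals the gene span, introns included, for 80.8% of genes (within 5%), which lowers the TPM of genes with long introns. TPM were used for marker sums and 1 alternative only, and levels of different keratins were compared as CPM per coding length instead. Of 21848 genes 21705 matched the Ensembl annotation.

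The 6 members and all lists were chosen with earlier results of these data known. The main test was edgeR 4.0.16 (R 4.3.3) quasi-likelihood on counts across all genes, with TMM, filterByExpr (minimum count 10, total 15) and Benjamini-Hochberg adjustment (0.05), in 4 fits: HepOrgs with hepatocytes (15 libraries), HepOrgs (12), assembloids (12), and assembloids at 1 week with MM HepOrgs at 1 week (9). Ratios used exact permutation tests (scipy 1.17.1) on log2 counts plus 0.5, with labels exchanged within time points where both groups had them, adjusted over 9 tests. DESeq2 1.42.0, limma 3.58.1 on log2 TPM (pseudocounts 1 and 0.1), other filters and scalings, a replicate block and omission of each library were alternatives; sample weights, omission of both low-albumin libraries and the paired ratio test were added after seeing the data. Named were the 6 keratins in every comparison, the list genes with the lowest adjusted p, and the 3 genes most correlated with each keratin. In the HepOrg fit all 18 same-numbered pairs of libraries deviated together (r 0.127 to 0.503). The main tests did not use this pairing, and only the replicate block and the paired ratio test did, the latter within each time only. None of the ratio tests linked the times of a replicate number. On simulated data, 97 to 100% of 200 genes with a log2 change of 2 were recovered, with 7 to 32 false calls, by fit and tool. The simulated replicates had the same fixed spread in every gene and fit (negative binomial dispersion 0.05). That spread was not taken from the assembloids, whose keratins differed widely between replicates. The recovery therefore does not show what change could be detected there. Sequences were read from the GRCm39 assembly at positions of the Ensembl annotation.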

Additional observations from a re-analysis of the deposited data

Results flagged for a closer look

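Both reporter genes, which enter no keratin comparison, had counts in all 12 assembloid libraries, and this signal was above that of the other 15 libraries, where the highest count was 0 for tdTomato and 1 for eGFP. The count of tdTomato, the label of the added cholangiocytes, ran from 9 to 6277 (median 369.5). The count of eGFP, the label of the added mesenchyme, ran from 23 to 40767 (median 1251). The highest eGFP count was that of fibrotic-like replicate 3 at 1 week, a library with 4569 CPM of Krt7. The highest tdTomato count was that of homeostatic replicate 3 at 1 week, with 187 CPM of Krt7, while homeostatic replicate 2 had 238 counts of tdTomato and 4196 CPM of Krt7.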

How the results depend on the processing

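Between HepOrgs and isolated hepatocytes, 3 and 5 keratins passed in HM-Wnt at 1 and 2 weeks and 4 in MM at each time. With all 27 libraries in 1 fit they were 1, 2, 1 and 0. With at least 10 counts in every library, which drops Krt7, Krt19 and Krt20, they were 2 in HM-Wnt at 2 weeks and 2 in MM at each time. In MM at 2 weeks, limma on log2(TPM + 1) and the fit of the 2 groups alone gave 2. Leaving out single libraries gave 3 to 4, 4 to 5, 3 to 4 and 2 to 4 calls, the last being 2 without hepatocyte replicate 1 or 3 or MM replicate 3. DESeq2 called 1 keratin, instead of 0, between the media at 2 weeks and between the assembloids at 1 week. The fit of the 2 groups alone called 1 between the assembloids at 2.5 weeks (Krt7, adjusted p = 0.0354 by edgeR, range 0.0354 to 1). Over both times the count was 0, but 0 to 3 with 1 library left out, and 2 with sample weights or without both low-albumin libraries. Homeostatic assembloids against MM HepOrgs gave 3 with DESeq2 and 1 with all 27 libraries. Fibrotic-like assembloids against MM HepOrgs gave 2 with DESeq2 and with all 27 libraries, 5 with the 2 groups alone and with sample weights, and 4 without both low-albumin libraries. Most of these counts of members, and those by DESeq2 above, are given without the share of all genes called under the same setting. They lend no support by themselves. The cause of these differences between settings was not tested.

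Of the ratios, Krt8 to Krt18 between the media ran from 0.52 to 0.72 and Krt19 to Krt18 in HepOrgs against hepatocytes from 1.52 to 4.38 with 1 library left out (the adjusted p of each reached 0.045, by the exact test, without MM replicate 2 of 2 weeks). Krt8 to Krt18 between the assembloids turned sign, from -0.042 to 0.10 with 1 library left out and to -0.0125 without both low-albumin libraries, as did Krt19 to Krt18 between the media (-0.56 to 0.47).

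The replicate block, over which 19 of 30 same-numbered pairs deviated together with the hepatocytes included, 6 of 18 in assembloids and 2 of 9 in the last fit, gave 4 calls in each HepOrg comparison with hepatocytes and 0 elsewhere; beside Krt7 and Krt19 in HM-Wnt it changed no call, nor did pairing in the ratio tests between the media. Of the single-gene values under settings other than leaving out 1 library, 325 kept their side of the threshold, 33 gained it and 15 lost it. Of 49 keratin differences whose size is not given, 29 changed sign under some setting and 0 passed under any. With 3 libraries a condition and up to 1 count of Krt20 in hepatocytes, the size of its change is limited by depth.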
